A study of Rattus norvegicus with 9 samples.

Results

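The interferon receptor and its STAT-IRF relay were followed through 9 genes, which encode the receptor chains (Ifnar1, Ifnar2), the kinases bound to them (Jak1, Tyk2) and the transcription factors at the end of the relay (Stat2, Irf1, Irf3, Irf7, Irf9). They were picked by symbol from the 32883 genes of the table of rat vestibular epithelium, each symbol matched a single entry, and all 9 were among the 15517 genes that passed the filter on low counts. Male Long-Evans rats were given 3,3′-iminodipropionitrile (IDPN) at 20 mM in their water, a compound that kills vestibular hair cells (HCs), for 3 weeks (IDPN-3wk) or 7 weeks (IDPN-7wk), and Control rats drank plain water. Each group had 3 rats, and each library held RNA of the pooled 2 utricles and 6 cristae of 1 rat, so that HCs, supporting cells, nerve, vessels and immune cells were measured together. The Control group served both exposure times and included rats killed at each of them, without a label that tells them apart, and the age of the rats is not given in the sources used here.

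Type I interferons, the secreted alarm signals of virus-infected or damaged cells, bind a receptor made of the Ifnar1 and Ifnar2 chains. The kinases Tyk2 and Jak1, bound to these chains, then phosphorylate STAT proteins, and Stat2 joins Irf9 and another STAT in the complex called ISGF3, which binds the interferon-stimulated response element in front of many target genes. Irf3 waits in the cytoplasm and is switched on by phosphorylation downstream of nucleic acid sensors, whereas Irf7 is itself a target of ISGF3 and drives further interferon production. Irf1 belongs mainly to the interferon gamma arm, where STAT dimers bind the gamma-activated sequence. Most cell types carry the receptor, and tissue macrophages, which also reside in the inner ear, are strong responders.

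At 7 weeks, 3 of the 5 transcription factor genes were upregulated, and neither Irf1 nor Irf3 nor any kinase or receptor gene passed the test by edgeR. Stat2 was 2.43-fold, Irf9 2.66-fold and Irf7 7.49-fold higher than in Control. These were 3 of the 9 genes, beside 5.13% of all 15517 genes tested (2% higher and 3.13% lower), where a differentially expressed gene (DEG) had an adjusted p below 0.05 and a fold change above 1.5 by edgeR's quasi-likelihood test. At 3 weeks, none of the 9 was a DEG by edgeR, beside 1.65% of all genes (0.438% higher and 1.21% lower). DESeq2 also gave 0, and 3 of the 9 had an unadjusted p below 0.05 by edgeR, beside 15.8% of all genes, where at 7 weeks it was 7 of the 9, beside 19.3%. The median log2 fold change of the 9 genes was 0.06 at 3 weeks and 0.59 at 7 weeks, and that of all genes tested was -0.000467 and 0.0097. Both comparisons used the same Control rats, so they are not independent.

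Libraries held 31100118 to 46018385 counts, so that 3 counts in a library corresponded to 0.0652 to 0.0965 CPM (counts scaled to a common library size), a floor that covers counting error only, since PCR copies without molecular identifiers are not independent molecules. Control replicate 3 and IDPN-3wk replicates 1 and 2 stood apart with 15460, 15497 and 15387 genes detected at equal depth, against 16843 to 17311 in the other 6 libraries. No IDPN-7wk library was among these 3. They held a single Control library, and the other 6 held a single IDPN-3wk library, so differences within these sets rest on it. The tissue label was met by 8 HC markers, whose summed level was 1280 to 1410 CPM in Control, 670 to 935 CPM at 3 weeks and 658 to 750 CPM at 7 weeks. Otof made up much of these sums, with means of 703, 353 and 351 CPM. At 3 weeks 7 of the 8 had a negative estimate, and Gfi1 a positive one (36.5 to 53.7 CPM). At 7 weeks all 8 were negative.

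**Figure D1:**
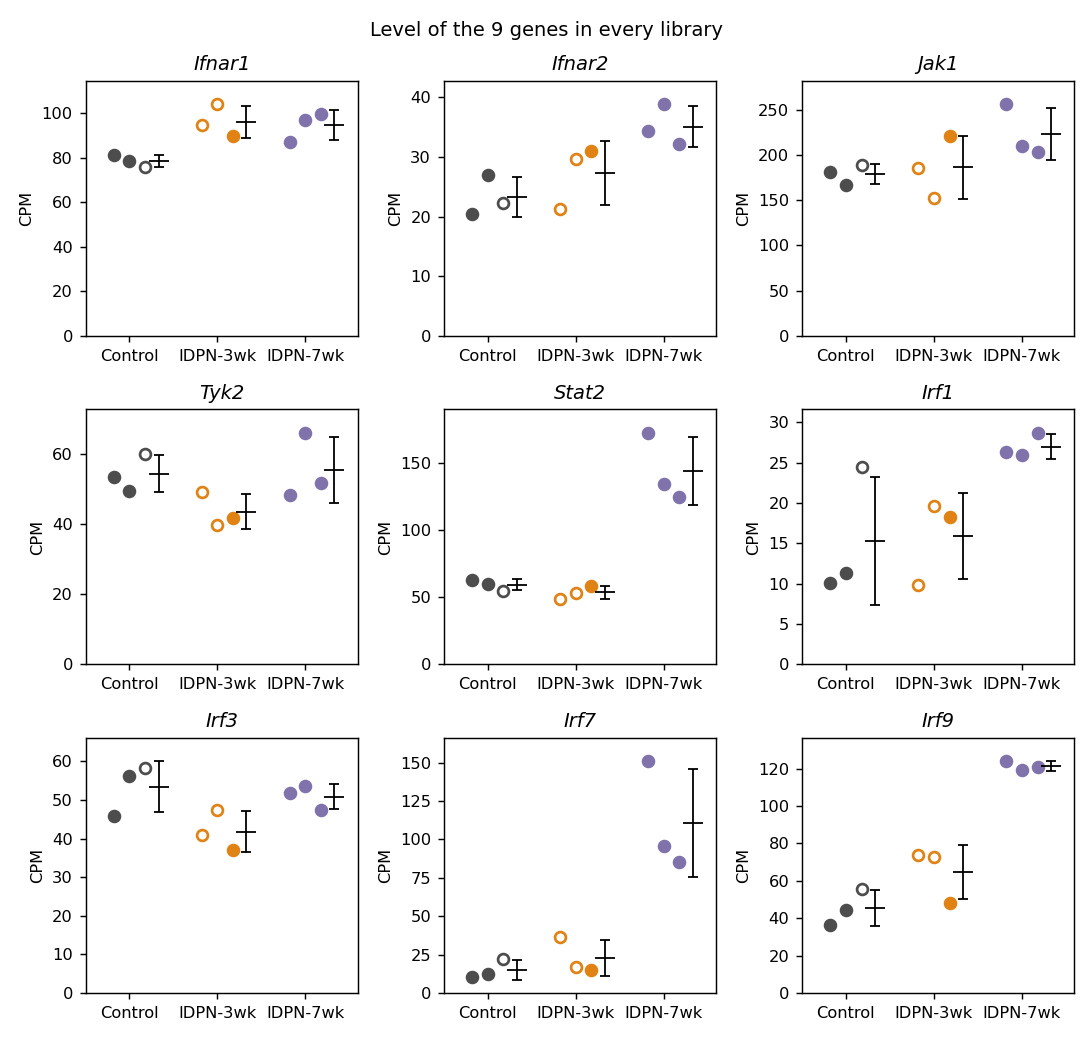
Level of each of the 9 genes in CPM (vertical axes, linear from 0) in the 3 libraries of each group, with mean and SD of 3 rats beside them. Open circles are the 3 libraries with fewer detected genes. Stat2 and Irf7 at 7 weeks lie above every other library, from 125 and 85.3 CPM upwards, and Irf9 at 7 weeks lies between 119 and 124 CPM.

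Ifnar1, the chain that docks Tyk2, was at 81.1, 78.3 and 75.7 CPM in Control, at 94.5, 104 and 89.8 CPM in IDPN-3wk, and at 86.9, 97.0 and 99.6 CPM in IDPN-7wk rats. Every exposed rat was above every Control rat, and the exposure groups overlapped. The differences from Control were small, at a log2 fold change of 0.29 (SE 0.101) at 3 weeks and of 0.27 (SE 0.101) at 7 weeks, and neither passed edgeR's test (adjusted p = 0.185 and 0.167). The fitted intervals (95%) ran from 0.07 to 0.52 at 3 weeks and from 0.05 to 0.49 at 7 weeks, so rises of Ifnar1 above 1.5-fold lay outside them.

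Ifnar2, the chain that docks Jak1 and binds interferon most tightly, was at 20.5, 27 and 22.3 CPM in Control, at 21.2, 29.7 and 31 CPM in IDPN-3wk, and at 34.3, 38.8 and 32.1 CPM in IDPN-7wk rats. The IDPN-7wk rats were above all others, while the Control and IDPN-3wk groups overlapped. At 7 weeks the log2 fold change was 0.59 (SE 0.187, interval 0.18 to 1.01), and by edgeR this missed the threshold (adjusted p = 0.104). The call depended on the setting, because DESeq2 gave the same change with an adjusted p of 0.0267, and edgeR gave 0.0468 with only the groups compared and 0.0495 without IDPN-3wk replicate 1. The gene span of a long noncoding RNA overlaps that of Ifnar2 in the RefSeq annotation. No source says on which strand reads were counted, and whether reads are shared was not tested.

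Neither kinase gene passed the test in any comparison. Jak1 was at 181, 167 and 189 CPM in Control, at 186, 152 and 221 CPM in IDPN-3wk, and at 256, 210 and 203 CPM in IDPN-7wk rats. Its IDPN-7wk values lay above the Control values and overlapped those at 3 weeks, and the log2 fold change at 7 weeks was 0.32 (SE 0.141, edgeR adjusted p = 0.255). Tyk2 was at 53.4, 49.6 and 60 CPM in Control, at 49.2, 39.7 and 41.9 CPM in IDPN-3wk, and at 48.3, 66.1 and 51.7 CPM in IDPN-7wk rats. All IDPN-3wk rats were just below the Control rats, with a log2 fold change of -0.32 (SE 0.154, edgeR adjusted p = 0.357), and at 7 weeks Tyk2 overlapped Control (log2 fold change 0.03, interval -0.31 to 0.37). For Jak1 at 3 weeks, the log2 fold change was 0.06 and the groups overlapped. The differences were -0.16 among the libraries with fewer detected genes, with a single Control, and 0.34 among the others, with a single IDPN-3wk library. Between 3 and 7 weeks the Jak1 difference was 0.26, and 0.01 among the other libraries alone, again with that single IDPN-3wk library. The gene spans of Raver2 and a small nuclear RNA overlap that of Jak1 in the RefSeq annotation, and whether reads are shared was not tested.

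The transcription factor genes are shown with the 250 bases before their start, because ISGF3 and STAT dimers act through short motifs in such windows. RefSeq windows of the rat build GRCr8 were given for 7 of the 9 genes, without Jak1 and Tyk2. Both strands were searched for the core of the interferon-stimulated response element (GAAA, then any 2 bases, then GAAA), which 3.41% of 33465 windows held, and for the gamma-activated sequence TTCNNNGAA, which 7.67% held, and capitals mark each match. Windows of the 3 DEGs and of Irf1, the factor of the interferon gamma arm, are printed 5′ to 3′ on the strand of the gene, for Stat2 (chr7:1286840-1287089, plus strand), Irf9 (chr15:33065586-33065835, plus strand), Irf7 (chr1:205800024-205800273, minus strand) and Irf1 (chr10:38417685-38417934, plus strand).
Stat2: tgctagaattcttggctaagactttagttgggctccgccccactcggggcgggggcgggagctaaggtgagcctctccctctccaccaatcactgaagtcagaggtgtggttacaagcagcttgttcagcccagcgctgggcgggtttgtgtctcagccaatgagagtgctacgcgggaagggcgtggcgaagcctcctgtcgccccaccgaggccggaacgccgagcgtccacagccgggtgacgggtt
Irf9: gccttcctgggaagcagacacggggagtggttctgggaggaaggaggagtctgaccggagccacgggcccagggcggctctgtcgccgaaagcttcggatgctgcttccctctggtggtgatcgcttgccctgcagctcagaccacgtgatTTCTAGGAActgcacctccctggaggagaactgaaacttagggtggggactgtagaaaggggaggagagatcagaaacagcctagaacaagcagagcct
Irf7: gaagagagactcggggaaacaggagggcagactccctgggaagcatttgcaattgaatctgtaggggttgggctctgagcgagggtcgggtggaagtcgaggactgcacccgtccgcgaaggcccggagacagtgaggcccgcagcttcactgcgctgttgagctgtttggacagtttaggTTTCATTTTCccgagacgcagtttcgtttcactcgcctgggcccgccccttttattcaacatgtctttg
Irf1: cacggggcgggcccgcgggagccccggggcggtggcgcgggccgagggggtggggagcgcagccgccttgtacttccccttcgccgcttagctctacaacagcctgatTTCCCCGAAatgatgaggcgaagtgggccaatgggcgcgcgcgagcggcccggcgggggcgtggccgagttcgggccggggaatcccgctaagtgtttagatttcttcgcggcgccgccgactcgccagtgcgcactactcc
Irf7 held the response element core read from the opposite strand, TTTCATTTTC, 69 to 60 bases upstream of the start. Irf9 held TTCTAGGAA at 99 to 91 bases and Irf1 held TTCCCCGAA at 142 to 134 bases upstream, both of the gamma-activated form, and Ifnar2 held TTCCTGGAA at 249 to 241 bases upstream. No match to either form lay in the windows of Stat2, Ifnar1 and Irf3, which says only that these letters are not there. None of the matches overlapped another. A match is a description of the letters, and binding was not measured.

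Stat2, the STAT particular to type I and type III interferon signals, was at 63.4, 60.1 and 55.1 CPM in Control, at 49.0, 53.7 and 58.6 CPM in IDPN-3wk, and at 173, 135 and 125 CPM in IDPN-7wk rats. The IDPN-7wk rats were far above the rest, and Control and IDPN-3wk rats overlapped. The level rose from 59.5 ± 4.18 CPM in Control to 145 ± 25.1 CPM at 7 weeks (SD, n = 3). The log2 fold change was 1.28 (SE 0.138, edgeR adjusted p = 0.000622), and this was the 75th smallest p of the 15517 genes. At 3 weeks the mean was 53.8 ± 4.80 CPM, with a log2 fold change of -0.15 (SE 0.137, interval -0.45 to 0.16, edgeR adjusted p = 0.663). The step from 3 to 7 weeks was itself past the threshold, at 1.43 on the log2 scale (SE 0.139, edgeR adjusted p = 0.00179), and Stat2 was called in both of these comparisons under every alternative run.

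Irf9, the DNA-binding subunit of ISGF3, was at 36.6, 44.6 and 55.7 CPM in Control, at 73.8, 72.5 and 48.1 CPM in IDPN-3wk, and at 124, 119 and 121 CPM in IDPN-7wk rats. In IDPN-3wk, 2 rats were above all Control rats and the third was among them, whereas the IDPN-7wk rats formed a tight group above all others. The mean rose from 45.6 ± 9.59 CPM in Control to 121 ± 2.47 CPM at 7 weeks (SD, n = 3), which is 1.41 on the log2 scale (SE 0.190, edgeR adjusted p = 0.00223). At 3 weeks the mean was 64.8 ± 14.5 CPM, and the log2 fold change of 0.51 (SE 0.188) was not past the threshold (edgeR adjusted p = 0.226). The high IDPN-3wk values were those of replicates 1 and 2, both with fewer detected genes, and within the sets of libraries the log2 difference at 3 weeks was 0.38 and 0.24. Between 3 and 7 weeks the difference of 0.90 (SE 0.188) missed the threshold by edgeR (adjusted p = 0.0774) and passed it in 4 settings, by DESeq2 (adjusted p = 0.000887), with no filter on counts (0.0465), with at least 10 counts in every library (0.0432) and with the fewer-genes set as a covariate (1.28, edgeR adjusted p = 0.00825).

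Irf7, the interferon-inducible factor that amplifies the response, was at 10.1, 12.0 and 22.1 CPM in Control, at 36.2, 16.9 and 15.1 CPM in IDPN-3wk, and at 151, 95.5 and 85.3 CPM in IDPN-7wk rats. The lowest IDPN-7wk rat was well above the highest rat of the other groups, which overlapped each other. From 14.7 ± 6.46 CPM in Control, Irf7 rose to 110 ± 35.1 CPM at 7 weeks (SD, n = 3). This log2 fold change of 2.91 (SE 0.415, edgeR adjusted p = 0.00307) placed it 158th among all genes by size of increase. At 3 weeks the mean was 22.7 ± 11.7 CPM, and the log2 fold change was 0.63 (SE 0.393, interval -0.25 to 1.5, edgeR adjusted p = 0.48), with 0.16 among the libraries with fewer detected genes and 0.39 among the others. The difference from 3 to 7 weeks was 2.28 (SE 0.403, edgeR adjusted p = 0.0445), and this call was close to the threshold. It was lost with only the groups compared (adjusted p = 0.0746) and without any of 6 single libraries, namely Control replicate 1 or 2, IDPN-3wk replicate 2 and each IDPN-7wk replicate (edgeR adjusted p from 0.0611 to 0.187, with the log2 difference between 1.99 and 2.43).

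Irf1, the factor induced most directly by interferon gamma, was at 10.1, 11.3 and 24.4 CPM in Control, at 9.87, 19.6 and 18.3 CPM in IDPN-3wk, and at 26.3, 25.9 and 28.7 CPM in IDPN-7wk rats. All IDPN-7wk rats were above all others, by a narrow margin over Control replicate 3, a library with fewer detected genes. The log2 fold change at 7 weeks was 0.82 (SE 0.355, interval 0.03 to 1.61), and it did not pass edgeR's test (adjusted p = 0.241). Without Control replicate 3 it was 1.33 with an edgeR adjusted p of 0.0389, so the call for Irf1 turned on that library. At 3 weeks the log2 fold change was 0.06 (edgeR adjusted p = 0.964). The difference was -0.72 among the libraries with fewer detected genes, where Control replicate 3 was the only Control. It was 0.68 among the others, where IDPN-3wk replicate 3 was the only IDPN-3wk library.

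Irf3, the factor that is present before a signal and is regulated by phosphorylation, was at 45.9, 56.1 and 58.3 CPM in Control, at 40.9, 47.5 and 36.9 CPM in IDPN-3wk, and at 51.8, 53.5 and 47.3 CPM in IDPN-7wk rats. The groups overlapped at both times. Its log2 fold changes were -0.36 (SE 0.142, edgeR adjusted p = 0.261) at 3 weeks and -0.07 (SE 0.142, interval -0.39 to 0.24, edgeR adjusted p = 0.859) at 7 weeks. Phosphorylation of Irf3 leaves no trace in such data. The gene span of Bcl2l12 overlaps that of Irf3 in the RefSeq annotation, and whether reads are shared was not tested.

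**Figure D2:**
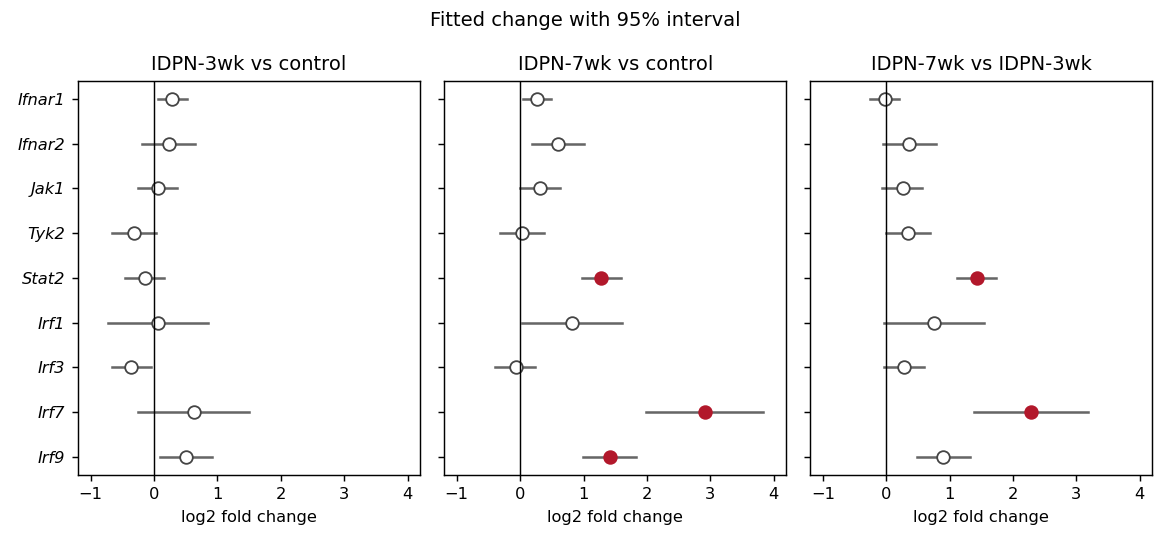
Fitted log2 fold change (horizontal axes) with its interval (95%) for each gene in the 3 comparisons, with filled red points for DEGs. Stat2, Irf7 and Irf9 are filled at 7 weeks against Control, Stat2 and Irf7 at 7 against 3 weeks, and none at 3 weeks.

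Counted over the 9 genes, 7 had IDPN-7wk values that did not overlap with Control, all of them higher, beside 17.2% of all genes that were higher without overlap. The exceptions were Tyk2 and Irf3. At 3 weeks only Ifnar1 was higher without overlap, beside 8.78% of all genes, and only Tyk2 lower, beside 10.9%. Between 3 and 7 weeks, 2 of the 9 were DEGs, beside 0.483% of all genes (0.348% higher and 0.135% lower). In the same comparison, 5 were higher without overlap (Ifnar2, Stat2, Irf1, Irf7 and Irf9), beside 12.1%, and none was lower without overlap, beside 8.92%. The estimate was above 0 for 6 of the 9 genes at 3 weeks, beside 49.9% of all genes, and for 8 of 9 at 7 weeks, beside 51.1%. Each IDPN-7wk rat had 7 or 8 of the 9 genes above all Control rats, whereas each IDPN-3wk rat had 3 above and 2 to 4 below them.

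The ligands of the pathway were hardly seen. The table lists 11 interferon genes, and none passed the filter. Ifnb1, Ifng and 4 interferon alpha genes had 0 counts in all 9 libraries, which allows a level of up to 0.0652 to 0.0965 CPM. Ifne, an interferon of epithelia, had 42 counts in all, with a highest level of 0.539 CPM in Control replicate 1, and Ifnk had 15 counts in all. The type III interferon Ifnl3 had 6 counts, all in IDPN-7wk replicate 2. No interferon was therefore detectable at a level that could be compared between groups.

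Of the 15 other receptor, JAK, STAT and IRF genes tested, 1 was a DEG at 7 weeks, beside 5.13% of all genes, a share that 1 of 15 does not set apart. It was Stat3, the STAT of interleukin 6 and related cytokines. It stood at 101 ± 11.3 CPM in Control, 129 ± 16.1 CPM at 3 weeks and 213 ± 42.7 CPM at 7 weeks (SD, n = 3). The log2 fold change at 7 weeks was 1.07 (SE 0.156, edgeR adjusted p = 0.00334). In this list 14 of 15 genes had a positive estimate at 7 weeks, beside 51.1% of all genes, with a median of 0.39. Of the 15, 7 were higher than Control without overlap, beside 17.2% of all genes. None of the list was a DEG by edgeR at 3 weeks or between the exposure times. There 3 and 3 had an unadjusted p below 0.05, beside 15.8% and 13.8% of all genes, and DESeq2 called 1 and 1.

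Of the 12 kinases and adaptors upstream of Irf3 and Irf7 tested, 1 was a DEG at 7 weeks, again a share near the 5.13% of all genes. Myd88, the adaptor of most Toll-like receptors and of the interleukin 1 receptor, rose from 20.4 ± 2.70 to 36.3 ± 4.47 CPM (SD, n = 3), or by 0.83 on the log2 scale (SE 0.164, edgeR adjusted p = 0.0151). Without IDPN-7wk replicate 1 or without replicate 2, no gene of this list was a DEG. Among all genes these refits held 432 and 557 DEGs, against 796 in the main fit. The median of the list was 0.10 at 7 weeks, and 9 of 12 had a positive estimate, beside 51.1% of all genes.

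Among 12 negative regulators, Usp18, the protease that removes ISG15 and blocks Ifnar2, rose from 4.81 ± 2.17 CPM in Control to 92 ± 16.8 CPM at 7 weeks (SD, n = 3), with 11.3 ± 4.67 CPM at 3 weeks. The log2 fold change at 7 weeks was 4.26 (SE 0.415, edgeR adjusted p = 0.000384). At 3 weeks Usp18 was higher than Control without overlap, at 1.23 (SE 0.38), and missed the threshold (edgeR adjusted p = 0.15). Socs3, an inhibitor of JAK kinases induced by cytokines, rose from 1.76 ± 1.06 to 7.53 ± 1.83 CPM, and its increase of 2.10 on the log2 scale (SE 0.527) passed edgeR's test narrowly (adjusted p = 0.0448). Usp18 and Socs3 were the 2 DEGs among the 12, beside 5.13% of all genes. This count fell to 1 when any of 6 single libraries was left out (Control replicate 1 or 2, IDPN-3wk replicate 3 or any IDPN-7wk replicate). Among all genes these refits held 432 to 815 DEGs, against 796 in the main fit. The median of the list was 0.29 at 7 weeks, with 7 positive and 5 negative estimates. Without overlap, 5 genes were higher than Control, beside 17.2% of all genes, and 2 were lower, beside 17.1%.

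The target genes had a higher median than the relay at 7 weeks. Of 27 type I interferon target genes tested, 18 were DEGs at 7 weeks, all upregulated, beside 2% of all genes upregulated. All 27 had a positive estimate, beside 51.1% of all genes, and 25 were higher than Control without overlap, beside 17.2%. Their median on the log2 scale was 1.62 at 7 weeks, against 0.19 at 3 weeks. Oas2 of this list had 0 counts in IDPN-3wk rats and lay below the 3-week median, which a bound in its place leaves as it is. Their summed level was 626 to 790 CPM in Control, 823 to 905 CPM in IDPN-3wk and 2280 to 2830 CPM in IDPN-7wk rats, so the groups did not overlap at either time. Between 3 and 7 weeks 13 were DEGs, all higher at 7 weeks, beside 0.348% of all genes. This count fell to 7 without IDPN-7wk replicate 1 and to 8 without IDPN-7wk replicate 3. DEGs among all genes fell from 75 to 42 and 39 in these refits.

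Ifitm3, a membrane protein that blocks virus entry, was the target gene that passed the test at 3 weeks too, with 56.7 ± 9.60 CPM in Control, 98.6 ± 3.56 CPM at 3 weeks and 239 ± 36.4 CPM at 7 weeks (SD, n = 3). Relative to Control, Ifitm3 changed by 0.80 (edgeR adjusted p = 0.0214) on the log2 scale at 3 weeks and by 2.08 (edgeR adjusted p = 5.23e-05) at 7 weeks. The call at 3 weeks was lost without Control replicate 1, Control replicate 3 or IDPN-3wk replicate 2, which left 0 genes of the list. Among all genes these refits held 77, 168 and 192 DEGs, against 256 in the main fit. DESeq2 called 5 of the list at 3 weeks, and 817 of all genes. By edgeR, 8 of the 27 had an unadjusted p below 0.05 at 3 weeks, beside 15.8% of all genes. At that time 7 were higher than Control without overlap, beside 8.78%, and 2 were lower, beside 10.9%. The other target genes with the smallest p were Ifi27, a mitochondrial protein and common marker of the response (144 to 557 CPM at 7 weeks, log2 fold change 1.95, edgeR adjusted p = 2.43e-05), Rtp4, a chaperone of receptors (13.9 to 87.2 CPM, 2.65, adjusted p = 5.23e-05), and Lgals3bp, a secreted glycoprotein (40.6 to 331 CPM, 3.03, adjusted p = 0.000143). At 3 weeks Ifi27 (0.39, edgeR adjusted p = 0.0961) and Rtp4 (0.44, 0.264) were higher than Control without overlap, and Lgals3bp (0.24, 0.667) overlapped it.

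Of 17 interferon gamma and Irf1 target genes, 8 were upregulated at 7 weeks by edgeR, beside 2% of all genes. None was a DEG at 3 weeks by edgeR, beside 1.65% of all genes. At 3 weeks 3 had an unadjusted p below 0.05, beside 15.8%, and DESeq2 called 1. The summed level was 257 to 281 CPM in Control, 272 to 354 CPM in IDPN-3wk and 575 to 670 CPM in IDPN-7wk rats, and the list had a median log2 change of 0.28 at 3 weeks and 1.21 at 7 weeks. Gbp2, a GTPase that attacks membranes around microbes, rose from 13.1 ± 5.10 to 79.9 ± 11.3 CPM (log2 fold change 2.61, edgeR adjusted p = 0.000457), and the related GTPase genes Irgm and Igtp by 1.99 and 1.21 on the log2 scale. Tapbp, which loads peptides onto MHC class I, rose from 95.3 ± 6.79 to 178 ± 9.89 CPM (log2 fold change 0.90, edgeR adjusted p = 0.0014; SD, n = 3). Many of these genes also respond to type I interferon, so the list does not single out interferon gamma. Between 3 and 7 weeks 6 of the 17 were DEGs, all higher at 7 weeks, beside 0.348% of all genes. The count was 1 with the fewer-genes set as a covariate, and 2 or 3 when IDPN-3wk replicate 1 or any IDPN-7wk replicate was left out. DEGs among all genes numbered 75 in the main fit, 37 with the covariate and 39 to 61 in those refits.

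**Figure D3:**
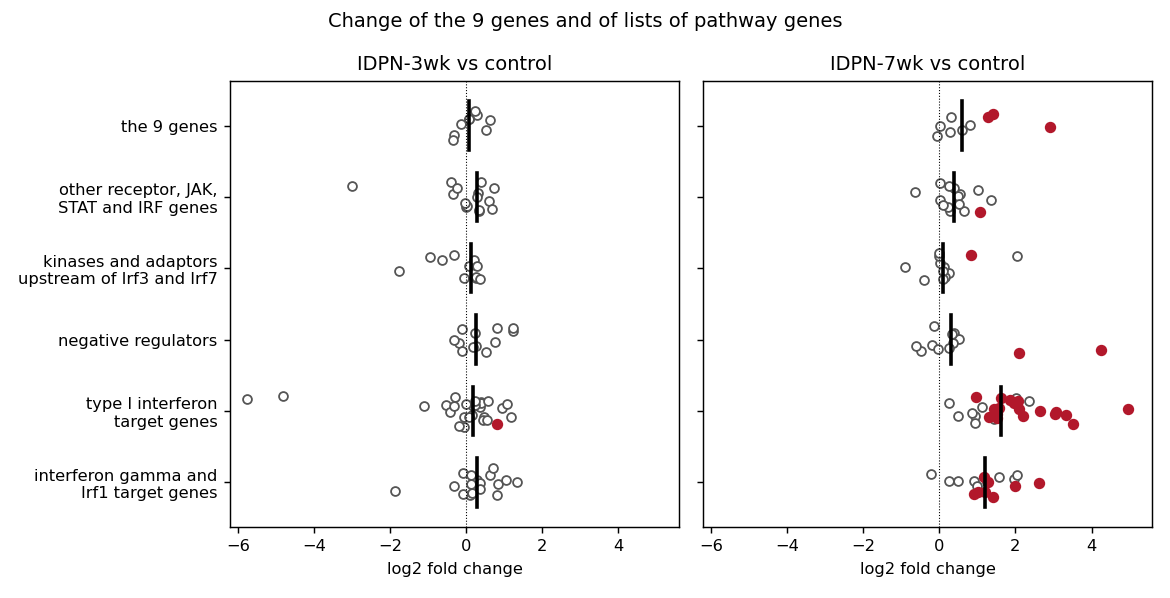
Log2 fold change against Control (horizontal axes) of each gene of the lists, with filled red points for DEGs and a bar at the median. At 7 weeks the medians lie at 0.59 for the 9 genes, 1.62 for the type I interferon target genes and 1.21 for the interferon gamma and Irf1 target genes, and at 3 weeks at 0.06, 0.19 and 0.28. The points at the far left at 3 weeks are genes with almost no counts in IDPN-3wk rats.

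Cell type markers moved as well. All 10 macrophage markers had a positive estimate at 7 weeks, beside 51.1% of all genes, and 9 were higher than Control without overlap, beside 17.2%. Of the 10, 1 was a DEG, beside 5.13% (C1qb, a complement subunit made by macrophages, 13.7 to 44.5 CPM, log2 fold change 1.70, edgeR adjusted p = 0.00958). Their summed level was 77.4 to 134 CPM in Control, 55.6 to 143 CPM in IDPN-3wk and 233 to 303 CPM in IDPN-7wk rats, so at 7 weeks it was higher without overlap, as Stat2, Irf9 and Irf7 were. IDPN-7wk replicate 1 had the highest macrophage sum and the highest Stat2 and Irf7, and without it the log2 fold change at 7 weeks was 1.13 for Stat2 and 2.62 for Irf7. Its title carries the same number as that of IDPN-3wk replicate 1, which also had the highest Irf7 of its group, and these libraries had the lowest Schwann cell sums (3080 and 7360 CPM) and supporting cell sums (2500 and 2880 CPM) of their groups. The labels do not say what this number marks. All Control titles share another number, IDPN-7wk replicates 2 and 3 share a further one, and so do IDPN-3wk replicates 2 and 3 with yet another. Exposure and number cannot be told apart against Control, and rats that share a number may not be independent. In IDPN-3wk the orders differed, because replicate 1, with the highest Irf7 (36.2 CPM) and Irf9 (73.8 CPM), had a macrophage sum of 58.0 CPM, below every Control rat, and replicate 2 had a macrophage sum of 143 CPM with Irf7 at 16.9 CPM. The part of macrophages in the rise of the 3 genes was not tested, and in such bulk samples more cells of a type and more RNA per cell cannot be told apart.

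Markers of other immune cells were at low levels. The lymphocyte and NK cell markers summed to 3.78 to 4.53 CPM in Control, 2.29 to 5.69 CPM in IDPN-3wk and 5.97 to 6.38 CPM in IDPN-7wk rats, with the B cell marker Ms4a1 at 0 everywhere. The neutrophil markers reached at most 8.09 CPM, in IDPN-3wk replicate 1, and Elane was at 0 everywhere. Siglech, a marker of plasmacytoid dendritic cells, the main makers of interferon alpha, had 0 counts in every library. Markers of the tissue's own cells were lower at 7 weeks, with a supporting cell sum of 2500 to 2820 CPM against 3940 to 4420 CPM in Control and a Schwann cell sum of 3080 to 6540 CPM against 9110 to 11400 CPM. The endothelial sum was 206 to 293 CPM at 7 weeks against 187 to 196 CPM in Control, and what part these shifts had in the levels of the 9 genes was not tested.

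**Figure D4:**
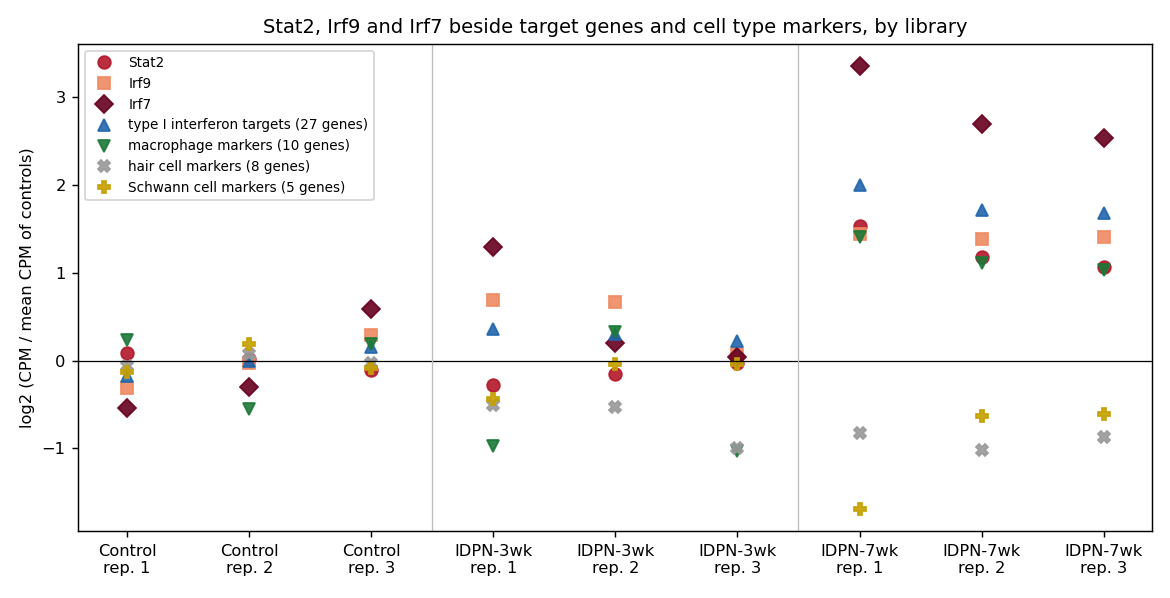
Log2 ratio to the Control mean (vertical axis) of Stat2, Irf9, Irf7 and the summed type I interferon targets and cell type markers, in each of the 9 libraries (horizontal axis). At 7 weeks the 3 genes, the targets and the macrophage markers lie above 0 and the hair cell and Schwann cell markers below 0, whereas IDPN-3wk replicate 1 has Irf7 and Irf9 above 0 with the macrophage markers below it.

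Genes were also compared with Stat2, Irf9, Irf7 and Irf1 by the shape of their levels over the 9 libraries, taken as the root mean square difference of log2 CPM after centring on the Control mean, over 10506 genes with a mean of at least 5 CPM. Among the genes nearest to Stat2 were Psmb8, a subunit of the immunoproteasome (0.194), and Junb, a subunit of the AP-1 factor (0.200). Irf9 was closest to Pqlc3 (0.147), then to Eif2ak2, the interferon-induced kinase PKR (0.165), and MGC108823 (0.206). Irf7 was closest to Gbp2 (0.315), Lgals3bp (0.366) and Rtp4 (0.420), all of them genes of the target lists. Irf1 was closest to Arhgap27 (0.252), Adm (0.271) and Palmd (0.286), none of which was a DEG at 7 weeks. All points of a comparison share the same libraries, and these distances are a description.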

How the data were processed

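RNA of 9 rats (3 per group) was sequenced from SMARTseq2 libraries, made from polyadenylated RNA with PCR amplification. The authors mapped reads with STAR 2.5.3a and made the deposited table with RSEM 1.3.0 (versions of the submitters' processing notes) on Rnor6.0 with annotation release 92, and the deposited file gives RSEM's estimated counts (expected counts) for each gene, in whole numbers and not normalized. RSEM divides reads that fit several genes. No source used here gives the strand setting.

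The tools were edgeR 4.0.16, DESeq2 1.42.0 and limma 3.58.1 in R 4.3.3. Genes were kept by filterByExpr (15517 of 32883) and normalized by TMM, and all 9 libraries entered a single robust quasi-likelihood fit of edgeR with a mean per group (6 residual degrees of freedom, median prior 4.07). Within each comparison, Benjamini-Hochberg adjustment covered all genes tested. DEGs had an adjusted p below 0.05 and a fold change above 1.5. Each SE was derived from the test, as the absolute log2 fold change divided by the square root of the F statistic. The intervals were built from these SEs with the t distribution, so they are approximate. With 3 rats against 3, exact permutation could not give a two-sided p below 0.1. Levels are TMM-normalized CPM. Differences within sets of libraries used log2 of CPM plus 2. The fit was tested on simulated data. Replicates differed by a chi-square per gene of at least 18.7, so none was a copy of another.

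The 9 genes, the lists and the markers were chosen from textbook knowledge with earlier results of these data known. From each list at most 4 genes were named, namely genes that were DEGs in any of the 3 comparisons, taken by their smallest p over the 3. Markers were named after their values were seen. Some genes that this choice would name are not reported here. Alternatives were DESeq2, RLE size factors, no filter or a minimum of 10 counts per library, the groups compared alone, the fewer-genes set as a covariate, mitochondrial genes left out, a fold change above 2 or none, and each library left out in turn. The libraries of that set were taken from the data, and the fit without these 3 libraries was added after the data were seen. Replicate numbers were assigned here in accession order.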

Additional observations from a re-analysis of the deposited data

Results flagged for a closer look

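Among the 9 pathway genes and the genes named from the lists, the change from Control differed between the exposure times for 11. This was a direct test (IDPN-7wk against IDPN-3wk in the same edgeR fit), and the level was always higher at 7 weeks. Of all genes, 0.483% were DEGs in this test. The list genes were named by their smallest p over the 3 comparisons, this test included, so their number here partly reflects that choice. Of the 9 pathway genes, those that differed were Stat2, with a log2 difference of 1.43 (adjusted p = 0.00179), and Irf7, with 2.28 (adjusted p = 0.0445). Among the negative regulators, Usp18 differed by 3.02 (adjusted p = 0.00888). Of the type I interferon target genes, Ifi27 differed by 1.56 (adjusted p = 0.000396), Ifitm3 by 1.28 (0.00374), Rtp4 by 2.20 (0.000696) and Lgals3bp by 2.79 (0.000696). Of the interferon gamma and Irf1 target genes, Gbp2 differed by 1.99 (adjusted p = 0.00888), Irgm by 1.64 (0.00888), Igtp by 1.09 (0.018) and Tapbp by 0.76 (0.017). With the fewer-genes set of libraries as a covariate, 1 gene of this last list was a DEG between the times, so at least 3 of these 4 calls were lost. Of all genes, 37 were DEGs between the times with that covariate, against 75 without it.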

How the results depend on the processing

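The depth limits the ligands, because 0 counts in a library still allow a level of up to 0.0652 to 0.0965 CPM. With 3 rats per group, the genes that missed the threshold are not shown to be unchanged. At 7 weeks 3 or 4 of the 9 genes were DEGs under every alternative, with Stat2, Irf9 and Irf7 past the threshold in 17 of 17 settings, and at 3 weeks 0 were under every alternative. Over the alternatives the 7-week log2 fold change ran from 1.13 to 1.37 for Stat2, from 1.27 to 1.60 for Irf9 and from 2.62 to 3.32 for Irf7. Between 3 and 7 weeks the count of 2 fell to 1 with only the groups compared, was 1 to 2 with a library left out, and rose to 3 with DESeq2, no filter, at least 10 counts in every library or the fewer-genes covariate. No paired analysis was possible because the labels carry no replicate numbers, and the numbers in the titles are shared by at most 1 rat of each of the groups compared (IDPN-3wk and IDPN-7wk replicates 1) and by none with Control. The largest shift of the median of all genes was below 0.1 on the log2 scale under every scaling.

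Without the 3 libraries with fewer detected genes, a fit with a single IDPN-3wk library, the log2 fold change of Irf1 at 7 weeks was 1.33. With that set as a covariate, Irf3 at 7 weeks turned to 0.01. Estimates near 0 also changed sign when single libraries were left out, where Ifnar1 between the exposure times ran from -0.07 to 0.04, Jak1 at 3 weeks from -0.08 to 0.19, Tyk2 at 7 weeks from -0.12 to 0.12, and Irf1 at 3 weeks from -0.17 to 0.57. Of the refitted values of the 9 genes, 415 kept their direction and side of the threshold, 10 changed sign, 9 passed it newly and 7 no longer did.

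For the lists, DESeq2 in place of edgeR called 1, 2 and 1 of the other receptor, JAK, STAT and IRF genes (at 3 weeks, at 7 weeks, and between them), 1, 2 and 1 of the kinases and adaptors, 1 at 3 weeks and 2 between the times of the negative regulators, 5 at 3 weeks and 21 between the times of the type I targets, and 1 at 3 weeks of the interferon gamma and Irf1 targets. DESeq2 called 817, 1393 and 584 of all genes, against 256, 796 and 75 by edgeR. The covariate gave 2 of the other receptor list and 1 negative regulator at 7 weeks, and 1 interferon gamma and Irf1 target between the times. Without the 3 libraries, IDPN-3wk kept a single library, so the counts of that fit are not given for the lists. With a library left out, the other receptor list held 0 to 1, 1 to 2 and 0 to 2 DEGs, the kinases and adaptors 0 to 1 in each comparison, the negative regulators 1 to 2 at 7 weeks and between the times, the type I targets 0 to 3, 13 to 20 and 7 to 16, and the interferon gamma and Irf1 targets 0 to 1, 6 to 8 and 2 to 7. Among all genes, the refits with a library left out held 75 to 439, 432 to 969 and 39 to 445 DEGs. The cause of these moves was not tested.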
